A study of Mus musculus with 8 samples.

Results

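The genes described here are 10 genes by which disease-associated microglia are commonly recognised: *Trem2*, *Tyrobp*, *Apoe*, *Lpl*, *Cst7*, *Itgax*, *Clec7a*, *Spp1*, *Gpnmb* and *Cd9*. They were matched by name, and 9 of the 10 were measured among 32227 genes, while the level of *Clec7a* was not analysed here. Their levels were followed in CD45+ cells enriched from the brains of 8 male C57Bl/6J mice aged 5 to 6 months according to the labels (the study's methods give another range), with 1 PIPseq library (droplet-based single-cell RNA-seq without a microfluidic device) per mouse. Mice received saline or lipopolysaccharide (LPS, 15000000 EU/kg) 24 hours before the brains were taken, and the brains were dissociated either with DMSO as vehicle or with actinomycin D, triptolide and anisomycin, which block transcription and translation. The 4 combinations (saline with DMSO, saline with inhibitors, LPS with DMSO, LPS with inhibitors) had 2 mice each, and replicates 1 and 2 of every combination were captured on days 1 and 2. No mouse carried a transgene, and the brains were not perfused, so that blood cells remained in the samples.

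In models of amyloid deposition, demyelination and aging, microglia near plaques or damaged myelin lower their homeostatic genes and take up a lipid-handling, lysosomal program. TREM2 is a lipid-sensing surface receptor that signals through the adaptor TYROBP. A first set of genes of the program, including *Apoe* and *Tyrobp*, can rise without the receptor, while a later set, including *Lpl*, *Cst7* and *Itgax*, depends on it in those models. Microglia of later stages in demyelination and development also make osteopontin, the product of *Spp1*, and the membrane glycoprotein encoded by *Gpnmb*.

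Within the quality limits there were 119053 cells, from 12039 to 17364 per library, of which 90732 were gated as microglia, 5720 as macrophages, 5746 as monocytes and 498 as dendritic cells. Median depth in microglia was 2234 to 3225 unique molecules (UMIs) per cell in saline libraries and 4762 to 5492 in LPS libraries. Barcodes with 1 to 99 UMIs, taken as free RNA, held 15.5% to 33.7% of all UMIs of a library, and 15 to 56 cells per library shared a barcode with a cell of another library. Gated microglia of saline libraries had 4979 ± 312 CPM (counts per 1000000 UMIs, SD, n = 4) of *P2ry12*, a purinergic receptor of homeostatic microglia, against 493 ± 57.1 in macrophages. The summed level of the 14 microglial markers was nevertheless 13706 CPM in saline macrophages, beside 13230 CPM of their own markers, and 4735 CPM in saline dendritic cells, beside 4077 CPM of theirs. In LPS libraries the summed level of these markers in gated microglia stayed above that of every other class's markers, but it was 15058 to 19006 CPM against 50717 to 55169 in saline libraries, and *P2ry12* was at 185 ± 24.3 CPM. Of the dendritic cell markers, *Cd209a* was at 1700 CPM in saline and 13.6 CPM in LPS dendritic cells, *Ccr7* at 446 and 4365 CPM, and *Xcr1* was at 0 in all 4 LPS libraries, so that the cells of that class carried different markers under the 2 treatments.

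A level below is the CPM of a gene in the UMIs summed over the cells of 1 class in 1 library. A log2 change below comes from edgeR's quasi-likelihood test on these sums with trimmed-mean (TMM) scaling, and its adjusted p from the Benjamini-Hochberg method over all genes of the class. A gene that passed an adjusted p of 0.05 is said to have changed. The TMM factors of microglia were 1.19 to 1.40 in saline and 0.698 to 0.836 in LPS libraries, so that a fitted log2 change in microglia stood 0.74 above the ratio of the CPM values. The offset was 0.33 in macrophages, 0.15 in monocytes and 0.10 in dendritic cells. The median fitted change of all genes in microglia was -0.18, and without TMM scaling it was -0.93.

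In saline brains the receptor gene and *Cd9* were highest in microglia, the adaptor gene *Tyrobp* was high in microglia and macrophages, *Apoe* and *Gpnmb* were highest in macrophages, and *Itgax* was highest in dendritic cells. *Trem2* in saline libraries stood at 2531 to 3182 CPM in microglia and 678 to 902 CPM in macrophages. In monocytes it stood at 197 to 269 CPM and in dendritic cells at 147 to 245 CPM, which was no higher than the 252 to 317 CPM of B-cells, a cell type that should lack the gene. B-cells numbered 124 to 455 in a saline library and 16 to 62 in an LPS library. *Tyrobp* stood at 2837 to 3738 CPM in microglia and 2012 to 2925 CPM in macrophages, 2 ranges that overlapped, with monocytes at 962 to 1811 CPM and dendritic cells at 538 to 997 CPM. *Cd9*, a tetraspanin of the cell surface, was at 1215 to 1495 CPM in microglia and between 195 and 432 CPM in the libraries of the other 3 classes.

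*Apoe*, which encodes the main lipid carrier of the brain, was the most abundant member in any class, at 25481 to 34280 CPM in saline macrophages. Monocytes followed with 654 to 1905 CPM, a range that overlapped the 596 to 953 CPM of microglia. Dendritic cells, at 315 to 444 CPM, overlapped the range of B-cells, 369 to 984 CPM, and extended below it, and the microglial range lay wholly within it. *Gpnmb* stood at 34.4 to 192 CPM in saline macrophages and below 2 CPM in every saline library of the other 3 classes. In saline macrophages a few cells per library held nearly all of its UMIs, as given below. *Itgax*, the CD11c integrin chain, stood at 94.8 to 158 CPM in dendritic cells, 21.3 to 99.9 in monocytes, 20.2 to 35.2 in macrophages and 9.83 to 11.98 in microglia, where only the microglial range was apart from that of its neighbour. The remaining 3 members, *Lpl*, *Cst7* and *Spp1*, had saline levels of at most 147 CPM in any of the 4 classes, and their ranges in microglia and monocytes overlapped.

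**Figure D1:**
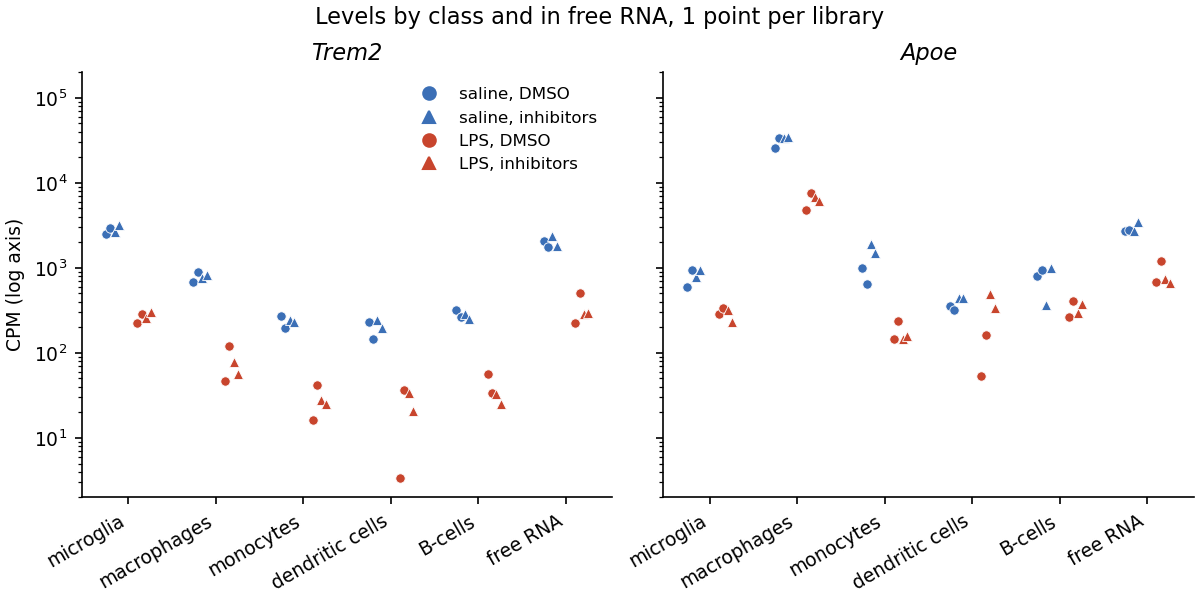
CPM of *Trem2* and *Apoe* on a log axis in each class, with 1 point per library (4 saline, 4 LPS) and with B-cells and free RNA beside them. *Trem2* is highest in saline microglia, and *Apoe* is highest in macrophages under both treatments.

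After LPS the members moved in both directions in microglia. The receptor gene *Trem2*, the tetraspanin gene *Cd9*, *Itgax* and *Apoe* fell, while *Spp1*, *Cst7* and *Gpnmb* rose, and neither *Tyrobp* nor *Lpl* passed the test. Of the 9 members, 7 changed, 3 higher and 4 lower, against 65.1% of the 20210 genes tested in microglia (30.1% higher, 35.0% lower), so that their share of called genes was near the background. The median change of the 9 members was -0.29 on the log2 scale, against -0.18 over all genes. Summed markers of other cell types moved with treatment in the gated microglia too. Choroid plexus and ependymal markers were 6128 CPM in saline and 769 CPM in LPS libraries, dendritic cell markers 553 and 188 CPM, B-cell markers 497 and 98.1 CPM and neutrophil markers 102 and 434 CPM, and their part in these changes was not tested.

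*Trem2* had 2531 and 2971 CPM in the 2 saline DMSO libraries and 2674 and 3182 CPM in the 2 saline inhibitor libraries. In the LPS libraries it had 228 and 287 CPM with DMSO and 256 and 305 CPM with inhibitors. The 4 LPS values were close together and far below the lowest saline value. The fitted change was -2.66 (SE 0.20, n = 4 and 4), with an adjusted p of 1.5e-07 by edgeR, and it stayed between -3.40 and -2.50 in the 22 other settings tried. In microglia thinned to 800 UMIs each, 82.8% to 89.9% of saline cells and 16.03% to 21.4% of LPS cells had a *Trem2* UMI. Before thinning these shares were 97.7% to 98.4% and 56.0% to 69.0%. B-cells thinned in the same way had 13.4% to 18.2% and 0% to 4%, from median depths of 1706 to 2473 and 1447 to 1928 UMIs, so that LPS microglia were still above their own background. The LPS background rests on 16 to 62 B-cells per library.

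*Tyrobp*, which encodes the signalling adaptor of TREM2 and of other myeloid receptors, had 2837 to 3738 CPM in saline microglia and 2065 to 2648 CPM in LPS microglia, 2 ranges that did not overlap. On the TMM scale the same libraries stood at 2028 to 3154 and 2612 to 3795, and there the ranges overlapped. The fitted change of 0.27 (SE 0.19) did not pass the test, with an adjusted p of 0.232 by edgeR. Scaled to total UMIs the change was -0.46 and passed, with an adjusted p of 0.0023 by edgeR, so the direction of *Tyrobp* rests on the scaling. With the capture day as a block the TMM-scaled change was 0.28 and passed (adjusted p = 0.0247 by edgeR). Between 78.1% and 85.7% of LPS microglia thinned to 800 UMIs kept a *Tyrobp* UMI, against 85.8% to 92.0% of saline microglia.

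*Cd9* fell. Its level was 1260 and 1476 CPM with DMSO and 1215 and 1495 CPM with inhibitors in saline microglia. After LPS it was 248 and 278 CPM with DMSO and 306 and 376 CPM with inhibitors, and no LPS library came near the lowest saline library. The change was -1.45 (SE 0.19), with an adjusted p of 2.4e-05 by edgeR.

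*Apoe* in saline microglia was 596 and 939 CPM with DMSO and 783 and 953 CPM with inhibitors. In LPS microglia it was 283 and 341 CPM with DMSO and 317 and 233 CPM with inhibitors, so that the groups did not overlap, although saline replicates differed more than those of *Trem2*. Both groups overlapped the level of B-cells, which had 369 to 984 CPM in saline and 262 to 406 CPM in LPS libraries. The change of -0.76 (SE 0.20) had an adjusted p of 0.0046 by edgeR. It no longer passed once the estimated free RNA was subtracted (-0.55, adjusted p = 0.0547 by edgeR), among DMSO libraries alone (-0.55, adjusted p = 0.102 by edgeR) or without the saline DMSO replicate 2 (-0.56, adjusted p = 0.0505 by edgeR). Free RNA, read from barcodes below the cell range, had 2726 to 3418 CPM of *Apoe* in saline and 672 to 1199 CPM in LPS libraries, both above the microglial level.

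*Lpl*, which encodes the lipase that releases fatty acids from lipoproteins, had 47.3 and 41.8 CPM with DMSO and 36.9 and 43.5 CPM with inhibitors in saline microglia. The LPS values were 15.98 and 15.7 CPM with DMSO and 25.2 and 28.7 CPM with inhibitors, all below the lowest saline value and lower with DMSO than with inhibitors. The change of -0.29 (SE 0.18) had an adjusted p of 0.184 by edgeR. Scaled to total UMIs it was -1.03 and passed. Among DMSO libraries alone it was -0.72 and passed (adjusted p = 0.0023 by edgeR), while among inhibitor libraries alone it was 0.20 and did not. The difference between the DMSO and the inhibitor change was -0.86 (SE 0.29), with an unadjusted p of 0.0105 in edgeR's test across all genes, and did not pass after adjustment. Over all libraries the change passed without the saline inhibitor replicate 1 (-0.44) or the LPS inhibitor replicate 2 (-0.46).

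*Itgax* was low in microglia throughout. Its saline values lay between 9.83 and 11.98 CPM and its LPS values between 3.17 and 3.77 CPM, with no overlap and little spread. The change was -0.99 (SE 0.14), with an adjusted p of 4.2e-05 by edgeR.

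The members that rose started low. *Spp1*, which encodes the secreted phosphoprotein osteopontin, had 4.03 and 10.2 CPM with DMSO and 9.08 and 11.7 CPM with inhibitors in saline microglia. After LPS it had 197 and 107 CPM with DMSO and 104 and 164 CPM with inhibitors. All LPS values were far above the highest saline value, and the change of 4.79 (SE 0.36) had an adjusted p of 1.9e-07 by edgeR. Few saline microglia carried the gene: 63 to 88 cells per library had a UMI, and the 5 cells with most held 37.6% to 74.2% of the UMIs. In LPS libraries 773 to 1749 cells had a UMI, and the 5 cells with most held 5.37% to 12.6%. Without those 5 cells, chosen by their values, the levels were 2.36 to 3.26 CPM and 93.9 to 179 CPM.

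*Cst7*, which encodes cystatin F, an inhibitor of lysosomal cathepsins, had 24.0 and 32.1 CPM with DMSO and 23.6 and 28.2 CPM with inhibitors in saline microglia. The LPS values were 96.3 and 86.8 CPM with DMSO and 77.6 and 89.6 CPM with inhibitors. Replicates lay close together in both groups, and the change of 2.43 (SE 0.16) had an adjusted p of 7.2e-08 by edgeR. *Cst7* was spread over more cells than *Spp1* in both groups, with 6.48% to 16.5% of its UMIs in the 5 cells with most in saline and 0.944% to 2.12% in LPS libraries.

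*Gpnmb* remained near the limit of detection in microglia. It had 1.03 to 1.89 CPM in saline and 2.31 to 4.15 CPM in LPS libraries, which did not overlap. The change was 1.84 (SE 0.23), with an adjusted p of 1.9e-05 by edgeR, and 1.09 when scaled to total UMIs. The 5 cells with most held 9.09% to 46.4% of the UMIs in saline and 13.5% to 41.5% in LPS libraries, and in the LPS inhibitor replicate 1 a single cell held 74 of 212 UMIs. Without those 5 cells, chosen by their values, saline levels were 0.611 to 1.72 CPM and LPS levels 1.82 to 2.9997 CPM, and in replicate 1 of the DMSO libraries they were 1.72 and 1.82 CPM. After thinning to 800 UMIs, 0.049% to 0.121% of saline and 0.159% to 0.346% of LPS microglia had a UMI of the gene, against 0.193% to 0.604% and 0.820% to 1.15% before thinning, and B-cells after thinning had 0% to 0.718% and 0%. The saline share was therefore within the background. With 16 to 62 B-cells per LPS library, their 0% cannot be set against shares as low as those of LPS microglia.

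**Figure D2:**
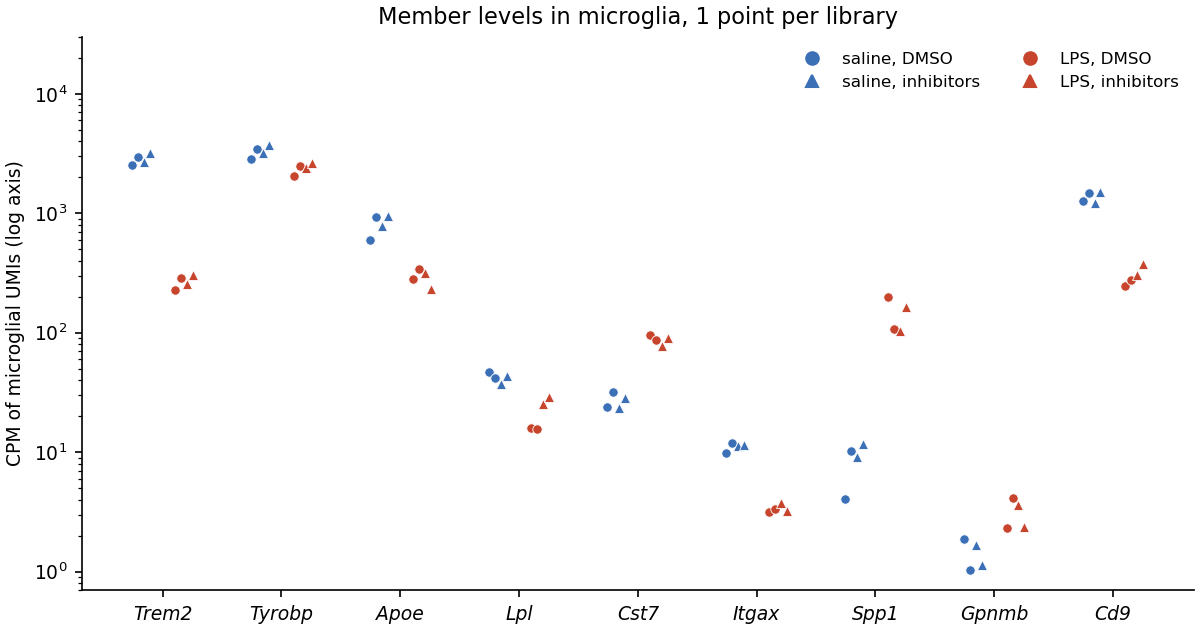
CPM of the 9 members in microglia on a log axis, with 1 point per library and colours for saline and LPS with DMSO or inhibitors. *Spp1*, *Cst7* and *Gpnmb* lie higher in all 4 LPS libraries, as did 13.3% of genes, and the other 6 members lie lower on this scale, *Tyrobp* and *Lpl* among them, as did 59.4% of genes.

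For the same members the share of thinned cells with a UMI moved as the level did. *Cst7* was found in 1.25% to 1.501% of saline and 5.96% to 6.96% of LPS microglia at 800 UMIs, and *Spp1* in 0.209% to 0.241% and 4.07% to 6.66%. *Cd9* was found in 57.0% to 63.9% of saline and 18.2% to 25.6% of LPS microglia. At full depth the shares were 4.07% to 4.57% and 26.0% to 31.7% for *Cst7*, 0.622% to 0.752% and 8.62% to 13.9% for *Spp1*, and 89.5% to 90.8% and 60.8% to 75.02% for *Cd9*. B-cells at 800 UMIs had 0% to 1.44% and 0% to 2.94% for *Cst7*, 0% to 0.440% and 0% to 2.94% for *Spp1*, and 7.26% to 12.4% and 3.23% to 8% for *Cd9*. The saline *Spp1* share in microglia was thus within the range of B-cells, and the LPS share was above it. The LPS shares of B-cells rest on 16 to 62 cells per library, so that their upper ends are uncertain.

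Sequences upstream of the start site are given for the receptor gene, which fell most, for *Itgax*, which fell too, and for *Spp1*, which rose most, because these 3 starts hold letters of factors that drive myeloid genes. They come from RefSeq on GRCm38.p6, each the 200 bases before an annotated start on the strand of the gene. They lie at chr17:48346201-48346400, chr7:128129350-128129549 and chr5:104434911-104435110, all on the plus strand, and for *Spp1* the start shown is the more upstream of 2. Capitals mark matches on either strand: PU.1 (GAGGAAG, or its complement read from the other strand) and AP-1 (TGANTCA) in *Trem2*, AP-1 in *Itgax*, and ISRE (GAAA, any 2 bases, GAAA) and PU.1 in *Spp1*.
Trem2: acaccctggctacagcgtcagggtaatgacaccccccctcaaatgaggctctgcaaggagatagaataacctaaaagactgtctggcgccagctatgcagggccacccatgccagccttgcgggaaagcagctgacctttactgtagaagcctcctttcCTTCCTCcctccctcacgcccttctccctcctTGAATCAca
Itgax: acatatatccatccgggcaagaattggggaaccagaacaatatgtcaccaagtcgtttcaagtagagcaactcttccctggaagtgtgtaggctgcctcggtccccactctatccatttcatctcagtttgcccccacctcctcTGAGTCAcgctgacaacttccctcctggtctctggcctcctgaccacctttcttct
Spp1: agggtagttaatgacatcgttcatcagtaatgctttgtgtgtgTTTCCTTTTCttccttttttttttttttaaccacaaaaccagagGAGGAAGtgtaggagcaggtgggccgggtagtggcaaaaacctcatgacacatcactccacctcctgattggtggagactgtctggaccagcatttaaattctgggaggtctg
Over the 250 bases before the start, AP-1 letters were in 2 of the 8 members with a RefSeq promoter here, *Clec7a* included, and in 6.75% of the 32851 promoters searched. A member counted if any of its starts had the letters, while the share counts each promoter, so the 2 are not in the same unit. The other *Spp1* start held none of the letters searched. PU.1 letters were in 2 of 8 and in 10.6%, and ISRE letters in 1 of 8 and in 2.98%. The NF-kB letters (GGG, any 2 bases, TTTCC) were in 1 of 8, *Cd9*, and in 1.41%, and the E-box CACGTG was in 0 of 8 and in 6.02%. A match is a description of the letters and not of a bound site.

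The wider program did not move in 1 direction in microglia either. Of 10 other genes of the first stage, 6 rose and 3 fell, with a median change of 0.86. Of 25 other genes of the later stage, 12 rose and 9 fell, with a median of 0.64. Over all genes of microglia 30.1% rose and 35.0% fell, with a median of -0.18. These lists and those of the next paragraph were counted on the TMM scale only, where changes stood 0.74 above the CPM ratios. A rise of less than 0.74 can therefore turn with the scaling. Those that rose most were *Ch25h*, the enzyme that makes 25-hydroxycholesterol, with a change of 9.73 (SE 0.44), the inhibitory receptor gene *Lilrb4a* with 6.78 (SE 0.18), the ferritin heavy chain gene *Fth1* with 4.11 (SE 0.27) and *Plin2*, the coat protein of lipid droplets, with 3.97 (SE 0.17). The cathepsin genes went both ways: *Ctsl* rose by 2.90 (SE 0.20), and the change of *Ctsd* was -1.76 (SE 0.21). The growth factor gene *Igf1*, with -1.48 (SE 0.18), the chemokine gene *Ccl6*, with -2.04 (SE 0.16), and the adhesion gene *Cadm1*, with -2.32 (SE 0.12), fell as well.

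Genes that act next to the receptor were split. Of 18 genes of TREM2-TYROBP signalling, 7 rose and 6 fell, with a median of 0.04, shares near those of all genes (30.1% and 35.0%). *Dok3*, an adaptor that restrains such signalling, rose by 2.62 (SE 0.19), and *Hcst*, which encodes the partner adaptor DAP10, rose by 1.35 (SE 0.15). The scaffold gene *Blnk* fell by 1.79 (SE 0.12), the phosphatase gene *Inpp5d* by 1.08 (SE 0.14) and the phospholipase gene *Plcg2* by 0.91 (SE 0.10). Of 16 genes of lipid handling, 7 rose and 5 fell, with a median of 0.15, against the same background. Apart from *Ch25h* and *Plin2* named above, *Nceh1*, a cholesterol ester hydrolase, rose by 1.46 (SE 0.09), and *Lrp1*, which encodes a receptor for apolipoprotein E, fell by 1.79 (SE 0.13).

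In single cells the late members were found together beyond what their separate frequencies give mainly in saline brains. *Lpl*, *Cst7*, *Itgax*, *Spp1* and *Gpnmb* were taken as the 5 late genes, and microglia with at least 2000 UMIs were thinned to 2000, so that the counted cells had 1 depth. This measure was chosen after the levels had been seen. The cut kept 8668 of 10770 and 6485 of 10125 saline microglia with DMSO, and 11068 of 13387 and 6397 of 10357 with inhibitors. It kept more of the LPS microglia, 11306 of 12563 and 8141 of 8970 with DMSO and 10350 of 11465 and 12213 of 13095 with inhibitors. Cells with 2 or more late genes made up 0.900% and 1.03% of saline microglia with DMSO and 0.660% and 1.06% with inhibitors, which were 78, 67, 73 and 68 cells. If the 5 genes had been found independently of each other at their observed frequencies, the shares would have been 0.358%, 0.391%, 0.255% and 0.437%. Observed shares were therefore 2.51, 2.64, 2.59 and 2.43 times the independent ones, and the 4 saline libraries hardly differed.

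In LPS libraries more cells had 2 or more late genes, but nearly as many as independence gives. The observed shares were 2.75% and 1.66% with DMSO and 2.16% and 2.55% with inhibitors. The independent shares were 2.46%, 1.59%, 1.95% and 2.34%. The ratios of 1.12, 1.05, 1.11 and 1.09 all lay below the lowest saline ratio. In an exact two-sided permutation test over libraries the ratio differed between saline and LPS (2.54 ± 0.0916 against 1.09 ± 0.0329, SD, n = 4 and 4) with p = 0.0286, which is the smallest that 4 against 4 can give, and 0.0286 after adjustment over 2 tests. The excess of observed over independent shares, which does not shrink as frequencies grow in the way a ratio does, was 0.405 to 0.642 percentage points in saline and 0.0732 to 0.292 in LPS libraries, with p = 0.0286 in the same exact permutation test. Replicates 1 and 2 were captured on different days, and with libraries exchanged only within a day there are 36 arrangements, whose smallest two-sided p is 0.0556. Both measures had this exact permutation p, which is above 0.05. Thinned to 800 UMIs with every cell kept, the mean ratio was 3.65 in saline and 1.13 in LPS libraries.

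**Figure D3:**
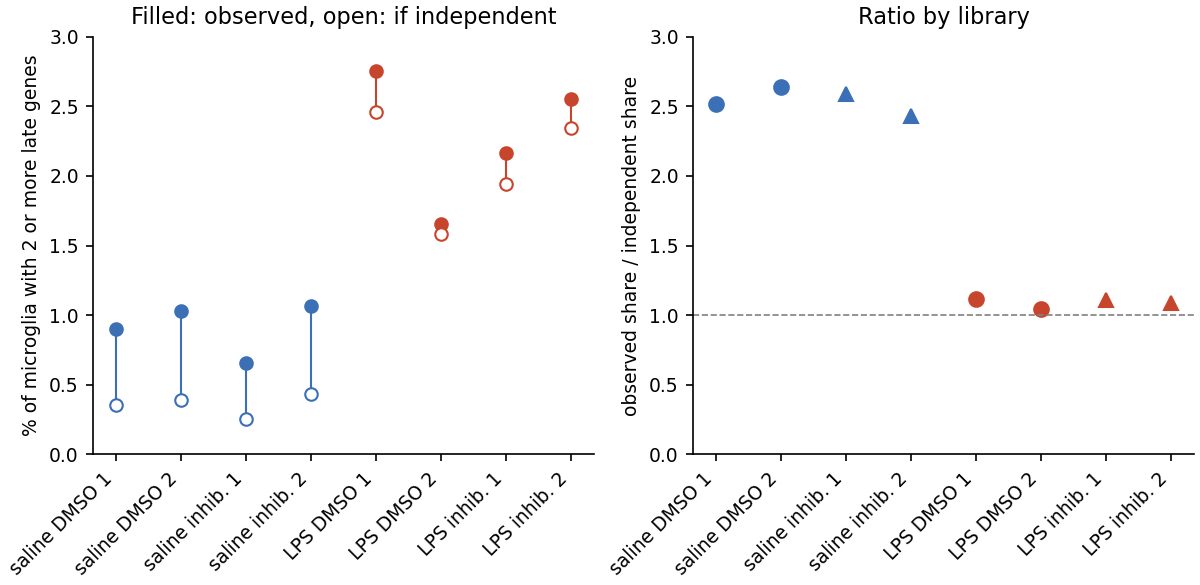
Share of microglia with 2 or more of the 5 late genes at 2000 UMIs, observed and as independent detection would give it, with 1 pair of points per library (left), and their ratio (right, dashed line at 1). Observed shares are 2.43 to 2.64 times the independent ones in the 4 saline libraries and 1.05 to 1.12 times in the 4 LPS libraries.

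The pairs among *Spp1*, *Lpl* and *Cst7* were found together mainly in saline libraries too. In saline libraries 20% to 26.3% of the 32 to 50 microglia with *Spp1* had *Lpl*, against 3.96% to 5.40% of those without *Spp1*, and 13.2% to 21.9% had *Cst7*, against 2.67% to 4.15%. In LPS libraries 3.25% to 5.499% of the 493 to 1144 microglia with *Spp1* had *Lpl*, against 2.29% to 4.31% of those without, and 13.2% to 17.5% had *Cst7*, against 13.1% to 16.04%. *Cst7* was in 6.73% to 11% of saline microglia with *Lpl* and in 2.55% to 3.93% of those without, while the LPS shares were 13.1% to 17.3% and 13.1% to 16.2%. *Gpnmb* and *Cst7* were found together in LPS libraries, while saline cells with *Gpnmb* were too few to show a direction. In LPS libraries 21.0% to 35.7% of the 42 to 62 microglia with *Gpnmb* had *Cst7*, against 13.1% to 16.1% of those without, and the share was higher in 4 of 4 libraries. In saline libraries, with 10 to 31 such cells each, the shares were 0% and 10% with DMSO, against 3.09% and 3.83% of those without. With inhibitors they were 3.57% and 0%, against 2.72% and 4.21%.

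The saline cells with 2 or more late genes also held more of the members that had not chosen them, and less of the homeostatic genes. Their *Apoe* was 2785 to 5600 CPM against 474 to 808 CPM in cells with no late gene, a ratio of 3.83 to 7.08 by library. *Cd9* was 1.85 to 2.25 times as high, *Tyrobp* 1.40 to 1.73 times and *Trem2* 1.03 to 1.28 times, each in 4 of 4 libraries. Since these cells were chosen by the late genes' values, these ratios are a description and were not tested. Their median depth was 3627 to 5204 UMIs, against 2615 to 3475 UMIs of cells with none.

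Among genes outside the 9 members, the receptor tyrosine kinase gene *Axl* stood at 139 to 198 CPM in these saline cells against 12.5 to 15.7 CPM, a ratio of 9.81 to 13.6. *Csf1* was 4.71 to 11.2 times as high, the tetraspanin gene *Cd63* 4.13 to 4.75 times, the hydrolase gene *Nceh1* 2.65 to 4.99 times and *Ccl6* 2.24 to 4.97 times. All 18 other later-stage genes with at least 10 CPM, and 8 of 10 other first-stage genes, were higher in 4 of 4 saline libraries, against 11% of 9025 genes. Microglial markers went the other way, with 13 of 14 lower in 4 of 4 libraries, against 30.7% of genes. All of these markers but *C1qa* had also named the cells as microglia, with a lower limit on their sum. *P2ry12*, *Tmem119* and *Slc2a5* were at 0.38, 0.43 and 0.32 times their level in cells with no late gene. Of 17 receptor signalling genes, 12 were lower and 1, *Lat2*, was higher. The summed macrophage markers were 0.80 to 0.95 times as high, and the summed monocyte markers were 46.4 to 148 CPM against 40.2 to 54.5 CPM. Cells over another class's marker threshold had been kept out of microglia beforehand. These sums therefore cannot tell whether macrophages or monocytes were among the chosen cells.

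In LPS libraries the 135 to 312 cells with 2 or more late genes stood closer to the rest. Of 19 later-stage genes 10 were higher in 4 of 4 libraries, and of 10 first-stage genes 6, against 5.75% of 7663 genes. Of 13 microglial markers 4 were higher and 3 lower, against 5.75% and 11.4% of genes. Their summed level was 0.98 to 1.04 times that of cells with no late gene, where the saline cells had 0.70 to 0.73 times.

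**Figure D4:**
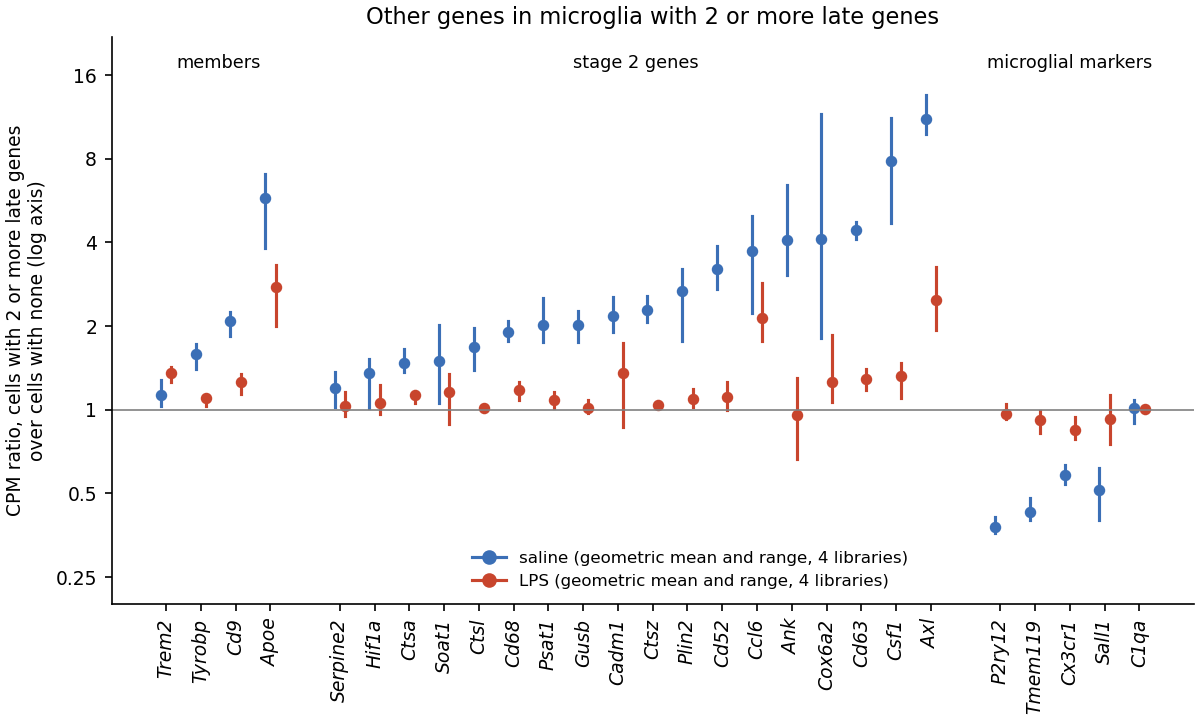
Ratio of CPM in microglia with 2 or more late genes to CPM in microglia with none, on a log axis, for members other than the late genes, later-stage genes and microglial markers. The microglial markers, apart from *C1qa*, had also served to name the cells as microglia. Points are geometric means and bars the range over 4 libraries. In saline libraries *Apoe* and *Axl* lie well above 1 and *P2ry12* and *Tmem119* below 1, and in LPS libraries these points lie nearer to 1.

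In macrophages LPS lowered most of the members. *Trem2*, *Tyrobp*, *Apoe*, *Lpl*, *Itgax* and *Cd9* fell and *Spp1* rose, so that 7 of 9 members changed, 1 higher and 6 lower, against 50.8% of 10292 genes (24.7% higher, 26.0% lower). The median change of the members was -1.99. Other genes of the program moved both ways, with 5 of 10 first-stage genes higher and 5 lower, and 8 of 23 later-stage genes higher and 8 lower. The summed macrophage markers of the class were 13230 CPM in saline and 5678 CPM in LPS libraries, its microglial markers 13706 and 5038 CPM and its neutrophil markers 156 and 579.7 CPM, and their part in these changes was not tested. *Apoe* had 25481 and 33283 CPM with DMSO and 33751 and 34280 CPM with inhibitors in saline macrophages. After LPS it had 4829 and 7696 CPM with DMSO and 6811 and 6130 CPM with inhibitors, well apart from every saline value. The change was -1.99 (SE 0.21), with an adjusted p of 2.2e-06 by edgeR, and macrophages remained the class with the most *Apoe*.

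*Trem2* in macrophages went from 678 to 902 CPM in saline to 46.8 to 121 CPM in LPS libraries, a change of -3.09 (SE 0.26, adjusted p = 1.5e-07 by edgeR). The saline level was above that of B-cells, 252 to 317 CPM, and the LPS level overlapped theirs, 25.02 to 56.8 CPM. *Lpl* had 57.3 and 133 CPM with DMSO and 60.02 and 38.9 CPM with inhibitors in saline macrophages, and between 1.62 and 12.8 CPM in the 4 LPS libraries. This was the largest fitted fall of a member in the class, -3.28 (SE 0.45, adjusted p = 2.6e-05 by edgeR). *Itgax*, with a change of -2.63 (SE 0.38), and *Cd9*, with -2.35 (SE 0.17), fell to 1.13 to 7.44 CPM and 29.1 to 50.1 CPM. *Lpl* and *Itgax* passed the expression filter through their saline libraries, and their LPS counts are too low to fix the size of their changes. The count of falls in this class includes both genes. B-cells of LPS libraries held *Cd9* UMIs too, as given above, and the macrophage level of *Cd9* was not set against theirs.

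*Spp1* in macrophages varied between saline libraries, from 14.8 to 144 CPM, and its LPS libraries, at 112 to 292 CPM, overlapped them. In the DMSO and the inhibitor replicate 2 of the saline group, 162 of 209 and 116 of 156 UMIs were in 1 cell. The rise of 2.18 (SE 0.51) had an adjusted p of 0.0024 by edgeR and did not pass among DMSO libraries alone (1.73, adjusted p = 0.0776 by edgeR) or without cells high in immediate-early genes (1.30, adjusted p = 0.0995 by edgeR). *Cst7* was 5.87 to 24.9 CPM in saline and 15.7 to 29.7 CPM in LPS libraries, and its change of 0.80 (SE 0.38) did not pass (adjusted p = 0.0904 by edgeR). It did pass with the capture day as a block (0.88, adjusted p = 0.0342 by edgeR), without the expression filter (0.77), without cells high in immediate-early genes (1.01), and without replicate 2 of the saline DMSO (1.17) or of the saline inhibitor libraries (1.15). *Tyrobp* fell by 0.59 (SE 0.18, adjusted p = 0.0120 by edgeR), from 2012 to 2925 CPM to 1128 to 1510 CPM. The call was lost without the LPS DMSO replicate 1 (-0.52), the LPS inhibitor replicate 1 (-0.47) or the saline DMSO replicate 2 (-0.53), and among DMSO libraries alone (-0.41, adjusted p = 0.275 by edgeR).

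*Gpnmb* in macrophages had an uneven saline group. The saline DMSO replicate 1 was at 192 CPM and the other 3 at 34.4 to 47.4 CPM, against 40.6 to 75.7 CPM in LPS libraries. In that library 440 of the 556 *Gpnmb* UMIs were in 1 cell, and in the 4 saline libraries the 5 cells with most held 92.6% to 100% of the UMIs, against 22.3% to 46.6% in LPS libraries. Without those 5 cells, which were chosen by their values, the level was at most 3.50 CPM in saline and 28.8 to 58.8 CPM in LPS libraries, a description with no test. The fitted change of 0.08 (SE 0.40) did not pass (adjusted p = 0.879 by edgeR), and without that library it was 0.89 and passed (adjusted p = 0.0020 by edgeR). It also passed among inhibitor libraries alone (0.995, adjusted p = 0.0011 by edgeR), while among DMSO libraries alone it was -0.70 and scaled to total UMIs -0.26, and neither passed. Thinned to 800 UMIs, 0.327% to 0.551% of saline and 2.14% to 4.10% of LPS macrophages had a *Gpnmb* UMI, against 0.727% to 1.21% and 6.12% to 9.46% before thinning, with B-cells at 0% to 0.718% and 0%.

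In monocytes 5 of 9 members changed, 1 higher and 4 lower, against 31.0% of 11688 genes (15.5% higher, 15.4% lower). The summed monocyte markers of the class were 8087 CPM in saline and 6520 CPM in LPS libraries. Its microglial markers were 4198 and 1539 CPM, its neutrophil markers 1364 and 420.4 CPM and its T-cell and NK markers 373 and 26.3 CPM, and their part in these changes was not tested. *Gpnmb* rose from 1, 0, 2 and 1 UMIs in the 4 saline libraries to 79, 32, 105 and 73 UMIs in the LPS libraries, or from at most 1.93 CPM to 8.96 to 30.2 CPM. The change of 4.11 (SE 0.55) had an adjusted p of 0.00015 by edgeR. The gene passed the expression filter through its LPS libraries, and the saline counts are too low to fix the size of its change. *Apoe* fell from 654 to 1905 CPM to 144 to 235 CPM (-2.65, SE 0.33, adjusted p = 9.0e-05 by edgeR), and the LPS level was below the 262 to 406 CPM of LPS B-cells. *Itgax* fell from 21.3 to 99.9 CPM to 6.50 to 11.9 CPM (-2.48, SE 0.35), and *Cd9* from 195 to 407 CPM to 128 to 165 CPM (-1.10, SE 0.20). The test of *Trem2* in monocytes gave -2.94 (SE 0.28) on levels that did not exceed those of B-cells. *Lpl*, *Spp1*, *Cst7* and *Tyrobp* had changes of 0.76, 1.06, -0.76 and -0.37 that did not pass. Leaving out 1 library gave a call to *Lpl* (saline DMSO replicate 1, 1.11, or saline inhibitor replicate 2, 1.04), to *Spp1* (saline or LPS DMSO replicate 1, 1.52 or 1.51) and to *Cst7* (saline inhibitor replicate 1, -1.27). *Cst7* also passed among DMSO libraries alone (-1.71, adjusted p = 0.0094 by edgeR), while among inhibitor libraries alone it was 0.57 and did not. *Spp1* also passed with DESeq2 (1.24, adjusted p = 0.0249), among inhibitor libraries alone (2.55), without the expression filter (1.30) and without cells high in immediate-early genes (1.35). *Lpl* also passed without those cells (1.71), without the filter (0.995) and with a stricter gate (0.995), and *Cd9* did not pass among DMSO libraries alone (-0.94, adjusted p = 0.105 by edgeR).

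Among the 498 dendritic cells only 5 members had enough UMIs to be tested, and 4 fell, against 39.6% of 2708 genes changed and 19.5% lower. *Itgax* and *Trem2* passed the expression filter through their saline libraries, while *Lpl*, *Cst7*, *Spp1* and *Gpnmb* did not pass it. The count of falls therefore depends on the filter. *Itgax* had 11 to 40 UMIs in a saline library and 1 to 5 in an LPS library, or 94.8 to 158 CPM and 5.20 to 28.0 CPM, a change of -3.15 (SE 0.43, adjusted p = 9.1e-06 by edgeR). *Cd9* fell from 241 to 432 CPM to 51.0 to 104 CPM (-2.22, SE 0.30), and its LPS level was not set against that of B-cells. *Tyrobp*, with -0.66 (SE 0.22), lost its call in 6 of the 8 fits that left out 1 library, and also without the expression filter (-0.45), with a stricter gate (-0.52), among DMSO libraries alone (-0.41) and without cells high in immediate-early genes (-0.66). *Trem2*, with -3.29 (SE 0.41), was at the level of B-cells in saline libraries, and the change of *Apoe*, -0.79, did not pass, but it did without the LPS inhibitor replicate 1 (-0.999) and among DMSO libraries alone (-1.75, adjusted p = 0.0217 by edgeR). The class's own markers *Cd209a* and *Ccr7* moved with treatment as given above. In the same cells the summed microglial markers were 4735 CPM in saline and 2115 CPM in LPS libraries, the macrophage markers 793 and 197 CPM and the monocyte markers 1144 and 531 CPM. The part of these markers in the changes was not tested.

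Whether the LPS change differed between classes of the same mice was tested with the mouse as a block. All 9 members had a lower change in macrophages than in microglia and passed, against 30.1% of 18101 genes, of which 22.6% were lower. The differences ran from -2.90 for *Lpl* to -0.42 for *Trem2*, and the difference of *Trem2* was lost when the sums were scaled to total UMIs (-0.03, adjusted p = 0.906 by edgeR), while the other 8 passed there too. It was lost as well with DESeq2 (-0.30, adjusted p = 0.340), with DESeq2's size factors (-0.28, adjusted p = 0.131 by edgeR) and without the mouse as a block (-0.41, adjusted p = 0.444 by edgeR). It was also lost in 5 of the 8 fits that left out 1 library (-0.30 to -0.18), those without replicate 1 of the saline DMSO, LPS DMSO or saline inhibitor libraries or replicate 2 of either inhibitor group. The other large ones were *Spp1* at -2.41, *Itgax* at -1.66, *Gpnmb* at -1.62, *Cst7* at -1.57 and *Apoe* at -1.26. As given above, a few cells held nearly all *Gpnmb* UMIs of saline macrophages. In replicate 2 of both saline groups 1 cell held most *Spp1* UMIs. The *Gpnmb* and *Spp1* differences depend on those cells, and no direction is read from that of *Gpnmb*. *Lpl* and *Itgax* were at most 12.8 and 7.44 CPM in LPS macrophages, so that the size of their differences is not fixed.

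Against microglia, monocytes differed in 7 of 9 members, against 27.2% of 18582 genes (14.1% higher, 13.2% lower). *Gpnmb* (2.57), *Lpl* (1.40) and *Cd9* (0.65) had a higher change in monocytes, and *Spp1* (-3.53), *Cst7* (-2.85), *Apoe* (-1.65) and *Itgax* (-1.20) a lower one. *Gpnmb* was at most 1.93 CPM in saline monocytes, so that the size of its difference is not fixed. With at least 1500 UMIs per cell *Itgax* no longer passed (-0.89, adjusted p = 0.0648 by edgeR). Dendritic cells differed in 3 of 9, against 12.1% of 16597 genes (4.21% higher, 7.94% lower): *Itgax* with -1.86, *Lpl* with 2.74 and *Spp1* with -4.74. Of these only *Itgax* had enough UMIs to be tested in dendritic cells alone. *Lpl* and *Spp1* entered the joint fit through their microglial counts, and in dendritic cells *Lpl* had 0 to 5 UMIs in a saline library and 4 to 23 in an LPS library and *Spp1* 0 to 5 and 1 to 4, so that nothing is read from either difference. Without 1 library, *Cd9* in monocytes lost its call in 5 of 8 fits (0.35 to 0.61), those without either LPS DMSO library, the LPS inhibitor replicate 1 or replicate 2 of a saline group. Without the mouse as a block *Cd9* in monocytes did not pass either (adjusted p = 0.109 by edgeR), nor did it with DESeq2 (0.49, adjusted p = 0.247) or its size factors (0.49, adjusted p = 0.146 by edgeR). Scaled to total UMIs, *Itgax* in dendritic cells lost its call (-1.504, adjusted p = 0.0842 by edgeR) and *Apoe* gained one (0.68, adjusted p = 0.0463 by edgeR). *Apoe* also gained one with free RNA subtracted (1.46, adjusted p = 0.0013 by edgeR), with the looser gate (0.87, adjusted p = 0.0036 by edgeR) and without replicate 1 of the saline DMSO (0.88) or LPS DMSO libraries (0.85). *Itgax* in dendritic cells did not pass with DESeq2 (-1.74, adjusted p = 0.0595), with a stricter gate (-1.51) or with at least 1500 UMIs per cell (-1.44). It lost its call in 6 of 8 fits (-1.77 to -1.35), all but those without the LPS inhibitor replicate 1 or the saline inhibitor replicate 2.

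**Figure D5:**
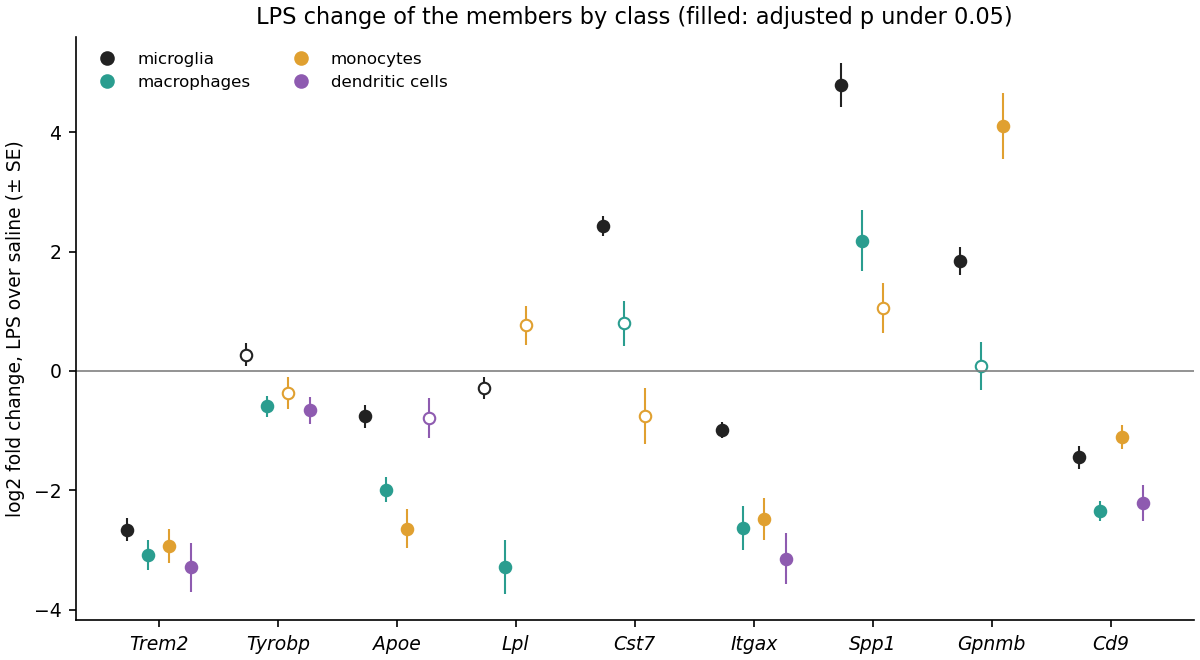
Fitted log2 change of each member after LPS in microglia, macrophages, monocytes and dendritic cells, with bars for 1 SE and filled points for an adjusted p under 0.05. *Trem2*, *Itgax* and *Cd9* are below 0 in all 4 classes. *Spp1* and *Cst7*, which were not fitted in dendritic cells alone, are highest in microglia among the other classes.

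The inhibitors were added during dissociation to hold back genes that respond to it. Microglia with more immediate-early and heat shock transcripts than 95% of inhibitor-treated microglia made up 32.2% to 78.3% of the cells in DMSO libraries and 1.16% to 11.3% in inhibitor libraries. Of the 9 members, 0 changed between DMSO and inhibitor libraries in microglia by edgeR, against 0.386% of genes, 0 by DESeq2, and 0 had an unadjusted p under 0.05. Their log2 differences, DMSO against inhibitors, lay between -0.35 for *Lpl* and 0.08 for *Cst7*. The 95% intervals, from the fit's SE with 12.1 degrees of freedom, were -0.55 to 0.25 for *Trem2*, -0.44 to 0.41 for *Apoe*, -0.89 to 0.50 for *Spp1* and -0.75 to 0.043 for *Lpl*. Differences within these intervals remain possible with 4 libraries against 4.

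By edgeR 0 members changed in macrophages (9 tested), monocytes (9) or dendritic cells (5), against 0.505%, 0.0599% and 0.591% of genes, and DESeq2 called 0, 1 and 0. At an unadjusted p under 0.05 there were 0, 3 and 1. The 3 in monocytes were *Spp1*, with a difference of 1.56 (SE 0.40), which DESeq2 called, *Cst7*, with 1.05 (SE 0.46), and *Gpnmb*, with -0.86 (SE 0.37). The 1 in dendritic cells was *Apoe*, with -1.13 (SE 0.34), which passed by edgeR without the expression filter (-1.20), with free RNA subtracted (-2.77) and among LPS libraries alone (-2.07). In saline monocytes the *Spp1* level was 87.0 and 38.6 CPM with DMSO and 5.30 and 8.08 CPM with inhibitors, from 45, 58, 6 and 7 UMIs, and 1 cell held 39 of the 45 and 41 of the 58, so that the level with DMSO rests on a single cell in each library. A difference of the LPS change between DMSO and inhibitor libraries was called by edgeR for 0 of 9 members in microglia and 0 of 9 in macrophages, against 0.0179% and 0.0% of genes, and by DESeq2 for 0 and 0. *Lpl* was at an unadjusted p under 0.05 in microglia, as were *Itgax* (-2.30, SE 0.74) and *Gpnmb* (-1.71, SE 0.68) in macrophages.

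Over the 32 sums of the 4 classes in 8 libraries, the genes whose log2 level ran most like a member's were read off as a description. They were *Fcrls*, *Tmem59* and *Syngr1* for *Trem2* (Pearson r = 0.97, 0.96 and 0.96), *Tmem86a*, *Creg1* and *Csf1r* for *Tyrobp* (0.93, 0.92 and 0.92) and *Serpinb6a*, *Cbr2* and *Fcna* for *Apoe* (0.94, 0.93 and 0.91). *B4galt4* was nearest to *Cd9* (0.92), *Klrd1* to *Itgax* (0.92), *Tmem106a* to *Gpnmb* (0.88), *Naa38* to *Cst7* (0.84), *Aoah* to *Spp1* (0.79) and *Ramac* to *Lpl* (0.75). The sums of a library share its depth and free RNA, and those of a class its cell type.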

How the data were processed

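CD45+ cells of 8 mouse brains were profiled by PIPseq, with 1 library per mouse. According to the methods, the authors made the deposited UMI counts with PIPseeker, which matched barcodes and aligned reads with STAR. The deposited counts were whole numbers over all barcodes, without normalization or selection of cells. The submitters' processing notes also name Seurat (version 4), whose output was not used here.

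Quality limits followed the methods: under 5% mitochondrial UMIs, 250 to 6499 genes and 800 to 44999 UMIs. A further limit of the methods, a complexity of at least 0.8, was not applied. Each cell was named from marker lists: a class needed at least 2 of its markers and a summed marker level over that class's threshold, 1.5 times ahead of the next class. Microglia were the remaining cells with at least 3 microglial markers and at least 0.4 of their library's median marker level, and other cells above 0.6 of it were set aside as mixed. This also served to remove doublets, together with cells that were high in the markers of several classes (2671 mixed and 5367 unnamed cells in all). Thresholds were set, and *C1qa*, *Stab1*, *Cd38*, *Ms4a4c*, *Fscn1*, *H2-Oa* and *Ttr* were left out of the naming, after the data had been seen.

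UMIs were summed per library and class and tested with edgeR 4.0.16 (quasi-likelihood test, TMM, low genes removed by filterByExpr, Benjamini-Hochberg over all genes) in R 4.3.3, with the other treatment as a covariate. The tests were also run on simulated counts with 200 genes changed by 2 or 4 times. In microglia 65.1% of genes were called, so that this check does not cover the choice of scaling. Differences between classes used the mouse as a block. DESeq2 1.42.0, other size factors, gates, depths, filters and left-out libraries were alternatives, and scaling to total UMIs, and the count of UMIs in the 5 cells with most, were added after the data had been seen. Every member was named in every class, and from each list at most 4 changed genes per direction with the largest change. The members and lists were chosen with earlier results of these data known. P-values measure the spread between mice.

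Numbers 1 and 2 pair the libraries because the labels give them as the capture day. Deviations from group means correlated between same-day libraries with a median of 0.12 in microglia, 0.15 in macrophages, 0.26 in monocytes and 0.021 in dendritic cells (6 pairs each). Shares of cells were computed after each cell was thinned to 800 or 2000 UMIs, and intervals cover the fitted error only. The methods name GRCm39, and the RefSeq promoters at hand were on GRCm38.p6, so genes were matched by symbol and coordinates were used only with those promoters.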

Additional observations from a re-analysis of the deposited data

Results flagged for a closer look

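Over 72 groups of 4 libraries (9 members, 4 classes, saline or LPS), 5 held a library far from the other 3, where chance gives about 1 in 20. *Apoe* in saline macrophages was 25481 CPM in the DMSO replicate 1, against 33283 to 34280 CPM. The same library had 191.9 CPM of *Gpnmb* in macrophages, against 34.4 to 47.4 CPM. *Apoe* in LPS monocytes was 234.9 CPM in the DMSO replicate 2, against 144 to 157 CPM. *Cd9* in LPS monocytes was 165.1 CPM in the inhibitor replicate 1, against 128 to 132 CPM. *Cst7* in LPS dendritic cells was 84.0 CPM in the inhibitor replicate 1, against 16.7 to 21.9 CPM, from 15 UMIs in that library.

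The LPS change differed from that of microglia of the same mice, by edgeR's class-by-treatment term, for 19 pairs of a member and a class. In macrophages the log2 difference was -0.42 for *Trem2*, -0.86 for *Tyrobp*, -1.26 for *Apoe*, -2.90 for *Lpl*, -1.57 for *Cst7*, -1.66 for *Itgax*, -2.41 for *Spp1*, -1.62 for *Gpnmb* and -0.87 for *Cd9*. Those of *Gpnmb* and *Spp1* depend on a few saline macrophages that held most of the UMIs, and no direction is read from that of *Gpnmb*. Those of *Lpl* and *Itgax* rest on few UMIs in LPS macrophages, so that their size is not fixed. In monocytes the difference was -1.65 for *Apoe*, 1.40 for *Lpl*, -2.85 for *Cst7*, -1.20 for *Itgax*, -3.53 for *Spp1*, 2.57 for *Gpnmb*, which was at most 1.93 CPM in saline monocytes, and 0.65 for *Cd9*. In dendritic cells it was 2.74 for *Lpl*, -1.86 for *Itgax* and -4.74 for *Spp1*. *Lpl* and *Spp1* had too few UMIs to be tested in dendritic cells alone and entered this fit through microglia, so that nothing is read from these 2 values.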

How the results depend on the processing

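Over 1248 alternative values of single members, 1136 kept direction and call, 37 gained a call, 48 lost one and 27 reversed. These values cover the LPS changes and the differences from microglia, without that of *Gpnmb* in dendritic cells. Between DMSO and inhibitors only *Spp1* in monocytes and *Apoe* in dendritic cells were counted. For the difference of the LPS change by dissociation only *Lpl* in microglia and *Itgax* in macrophages were counted. Other members in these comparisons were left out, so the shares do not describe them. Of the counts and ratios of the comparisons, 268 of 280 stayed within 1.5 times (counts) or 1 SD (ratios) of their value, which lets a count of members move by 1 or 2. For 8 of the other 12 a small count moved, and the cause was not tested: members changed by LPS in dendritic cells were 2 without cells high in immediate-early genes. Members differing between DMSO and inhibitors were 1 in macrophages, 2 in monocytes and 1 in dendritic cells without the expression filter, 1 in monocytes with DESeq2, and 1 in dendritic cells with free RNA subtracted and 1 with LPS libraries only. The difference of the LPS change by dissociation in macrophages was called for 1 member (*Gpnmb*) without the filter. Thinning to 800 UMIs, chosen after the data had been seen, moved the ratio of observed to independent cells with 2 or more late genes to 3.65 in saline and 1.13 in LPS libraries. With cells left unnamed by the gate included it was 2.57 and 1.10. Unnamed cells were 1.87% to 3.56% of saline and 5.52% to 7.19% of LPS cells. With them the mean share with 2 or more late genes went from 0.914% to 1.04% in saline and stayed at 2.28% in LPS libraries. The saline counts went from 78, 73, 67 and 68 to 86, 91, 75 and 81 cells. The gate asks for 0.4 of the median marker level, and markers were lower in such saline cells, so it can leave some out. With the replicate block (libraries exchanged only within capture days, chosen after the data had been seen) the saline minus LPS difference of 1.45 in the ratio, and of 0.355 percentage points in the excess, had an exact permutation p of 0.0556, the smallest possible.

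Leaving out 1 library at a time gave 6 to 8 changed members in microglia, 6 to 8 in macrophages, 5 to 7 in monocytes and 3 to 4 in dendritic cells. It gave 0 to 0 between DMSO and inhibitors, 8 to 9, 6 to 7 and 2 to 3 against microglia, and ratios of 2.51 to 2.58 in saline and 1.08 to 1.11 in LPS libraries. With the replicate block (capture day) the counts were 8, 8, 5 and 4, and 0 between DMSO and inhibitors in all classes, and it changed no other call of a member than those of *Tyrobp* in microglia (0.28) and *Cst7* in macrophages (0.88).

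Among the values counted above, those that reversed, for which the cause was not tested, were these. Scaled to total UMIs: *Tyrobp* in microglia -0.46, *Gpnmb* in macrophages -0.26, and the difference of *Trem2* from microglia 0.26 in monocytes and 0.052 in dendritic cells. With DMSO libraries only: *Gpnmb* in macrophages -0.70 and *Tyrobp* in monocytes 0.23. With inhibitor libraries only: *Lpl* in microglia 0.20 and *Cst7* in monocytes 0.57. With at least 1500 UMIs per cell: *Gpnmb* in macrophages -0.11 and the *Trem2* difference in dendritic cells 0.13. *Gpnmb* in macrophages was -0.056 without the ex vivo covariate and -0.92 without cells high in immediate-early genes. *Apoe* in dendritic cells was 0.45 with free RNA subtracted, the *Trem2* difference in monocytes 0.020 without the mouse block, and the *Cst7* difference in dendritic cells -0.19 with the looser gate. Leaving out 1 library at a time gave ranges through 0 for *Gpnmb* in macrophages (-0.19 to 0.89), the *Trem2* difference in monocytes (-0.32 to 0.16) and dendritic cells (-0.69 to 0.28), and in dendritic cells the *Apoe* (-0.059 to 0.88) and *Cd9* differences (-0.70 to 0.0043).

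Dendritic cells numbered 35 to 109 per library.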
